A study of Homo sapiens with 6 samples.

Results

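The genes described here are the IL-6 family cytokine genes IL11, LIF, CLCF1 and IL6, the receptor genes IL6R, IL6ST, LIFR and IL11RA, the transcription factor gene STAT3 and its inhibitor SOCS3. They are 10 of the 26389 genes in the deposited count table, and each was found by its symbol in 1 row. The set was chosen by its shTCTP to shCtrl differences as well as by function, since IL11, LIF and CLCF1 were known to be among the genes called in this same comparison. The differences between the groups are therefore given for these 10 genes as a description, and nothing is supported with them. The 6 libraries hold messenger RNA of HepG2 cells, an established line grown from a human liver carcinoma. In 3 libraries (shTCTP) the cells had been transfected with a short hairpin RNA plasmid against TCTP, the translationally controlled tumour protein, which TPT1 encodes. In the other 3 (shCtrl) they had been transfected with a control hairpin plasmid. Both groups thus share the cell line, the lipid transfection and the carriage of a plasmid, and an untransfected group was not analysed here.

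Cytokines of the IL-6 family bind a receptor chain of their own and then engage gp130, the shared signalling chain, which IL6ST encodes. IL-6 and IL-11 use gp130 pairs, with IL6R and IL11RA as the ligand-specific chains, whereas LIF signals through gp130 paired with LIFR. CLCF1 binds the CNTF receptor, which also recruits gp130 and LIFR. The receptors activate JAK kinases, which phosphorylate STAT3, and STAT3 induces SOCS3, which shuts the receptor complex off. In hepatocytes IL-6 acting through STAT3 is the classical inducer of acute phase proteins.

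The libraries held 25427614 to 30486409 reads assigned to genes. The shallowest, shTCTP library 3, stood apart, with a mean correlation across genes of 0.977 with the other 5 libraries, against 0.986 to 0.987 for the others. All 11 hepatocyte markers had reads, with a summed level of 15334 to 20438 FPKM (fragments per kilobase of transcript, scaled to library size) in shTCTP and 17822 to 20641 FPKM in shCtrl libraries. TPT1 stood at 1799 ± 237 CPM in shTCTP and 2371 ± 178 CPM in shCtrl libraries (SD, n = 3 each; CPM being counts scaled to library size and TMM factors). Its fitted level was 75.9% of control, a log2 fold change of -0.40 ± 0.17 (SE), and the edgeR quasi-likelihood test gave an adjusted p of 0.396 among all genes. An exact two-sided permutation test of TPT1 alone returned p = 0.1, and no smaller p is possible with groups of 3. Nothing in the labels says that libraries of 1 group came from separate cultures, so the p-values weigh differences against a spread that may be technical alone.

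The 3 cytokine genes with substantial reads were higher in every shTCTP library than in any shCtrl library. Such a lack of overlap in the higher direction was found for 9.83% of all genes tested. IL11, a cytokine with known roles in bone and in fibrosis, had the highest level, CLCF1 the largest fold and LIF, a cytokine known for keeping mouse stem cells undifferentiated, the smallest of the 3 folds. IL6 itself was almost without reads in both groups. Of the 9 genes that could be tested, 3 were called higher and 0 lower, a call being a Benjamini-Hochberg adjusted p below 0.05 in the edgeR fit of all 14197 genes tested. The same call was made in the higher direction for 1.26% of all genes tested, and in the lower direction for 0.148%. Since the choice of the 10 genes used this contrast, nothing is read from their counts beside these shares. In bulk RNA, more cells that make a transcript and more transcript per cell cannot be told apart.

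IL11 (ENSG00000095752.6, GRCh38 chromosome 19, 55364389 to 55370463, minus strand) had 189, 225 and 164 CPM in shTCTP libraries, against 73.3, 71.8 and 71.5 CPM in shCtrl libraries. The groups did not overlap, and the 3 shCtrl libraries lay close together while the shTCTP libraries spread more. The means were 193 ± 30.9 CPM in shTCTP and 72.2 ± 0.977 CPM in shCtrl libraries (SD, n = 3 each), a fold of 2.67 (95% interval 2.17 to 3.27). These values rested on 4845 to 6693 reads in shTCTP and 1991 to 2235 reads in shCtrl libraries.

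The sequence just upstream of IL11 is shown because it is the promoter window of a gene that was higher and it holds a match to the AP-1 motif, which FOS and JUN proteins bind. These are the 250 bases before the RefSeq start site (GRCh38.p14, chr19:55370464-55370713, minus strand), with the match in capitals.
IL11: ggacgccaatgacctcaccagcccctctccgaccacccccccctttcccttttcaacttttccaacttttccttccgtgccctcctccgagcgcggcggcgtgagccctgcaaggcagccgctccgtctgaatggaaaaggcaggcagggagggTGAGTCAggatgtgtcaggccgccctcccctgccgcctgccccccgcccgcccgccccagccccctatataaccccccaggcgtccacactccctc
The match begins 96 bases before the start site, and 67.2% of the 250 bases are G or C. The motif was searched as TGANTCA, which reads the same on both strands, in windows of 250 bases before and 50 after each start. Of 35116 such windows in the RefSeq table, 7.71% held it. Windows were found for 8 of the 10 genes, all but LIF and CLCF1. IL6R also held a match to this motif, 37 bases after its start. The STAT motif TTCNNNGAA, found in 7.66% of windows on either strand, was present in LIFR windows and in none of the windows of the other 7 genes. TATAAA, found in 11.5% of windows, also matched only in a LIFR window. No match says only that these letters are not in the window.

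LIF (ENSG00000128342.4, chromosome 22, 30240447 to 30246851, minus strand) had 46.2, 51.1 and 51.3 CPM in shTCTP libraries, against 19.2, 22.4 and 20.5 CPM in shCtrl libraries. The groups were apart by more than the spread within either. The means were 49.6 ± 2.88 CPM in shTCTP and 20.7 ± 1.61 CPM in shCtrl libraries (SD, n = 3 each), a fold of 2.40 (95% interval 1.97 to 2.91). LIF overlaps an antisense RNA, AC004264.1 in GENCODE 29, by 647 bases, and whether reads were counted by strand is not given in the sources used here. That RNA had 58, 57 and 33 reads in shTCTP and 38, 24 and 28 reads in shCtrl libraries, few beside the 1350 to 1520 reads of LIF in shTCTP and 570 to 646 in shCtrl libraries.

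CLCF1 (ENSG00000175505.10, chromosome 11, 67364168 to 67374177, minus strand) had 26.2, 28.6 and 27.9 CPM in shTCTP libraries, against 7.54, 9.05 and 9.40 CPM in shCtrl libraries. Of the 9 tested genes it ranked first in the fit, and the lowest shTCTP library was well above the highest shCtrl library. The means were 27.6 ± 1.2 CPM in shTCTP and 8.67 ± 0.989 CPM in shCtrl libraries (SD, n = 3 each), a fold of 3.18 (95% interval 2.55 to 3.97). Its whole span of 10010 bases lies within the span of RAD9A, a checkpoint gene on the opposite strand. RAD9A had 310, 301 and 332 reads in shTCTP and 281, 338 and 283 reads in shCtrl libraries, a log2 fold change of 0.04 (edgeR adjusted p = 0.959). AP003419.1, a gene that GENCODE 29 annotates on the same strand across 9417 bases of CLCF1, had 27, 35 and 30 reads in shTCTP and 7, 9 and 12 reads in shCtrl libraries (log2 fold change 1.68, edgeR adjusted p = 0.0428), and the 2 genes may share reads.

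IL6 (ENSG00000136244.11, chromosome 7, 22725884 to 22732002, plus strand) had 3, 0 and 4 reads in shTCTP and 0, 3 and 1 reads in shCtrl libraries. It did not pass the filter on low counts and was not tested. A count of 0 allows up to 3 reads, which is 0.101 CPM in shTCTP library 2 and 0.0983 CPM in shCtrl library 1. A difference between the groups near these levels was not detectable at this depth. Such limits cover counting error only.

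**Figure D1:**
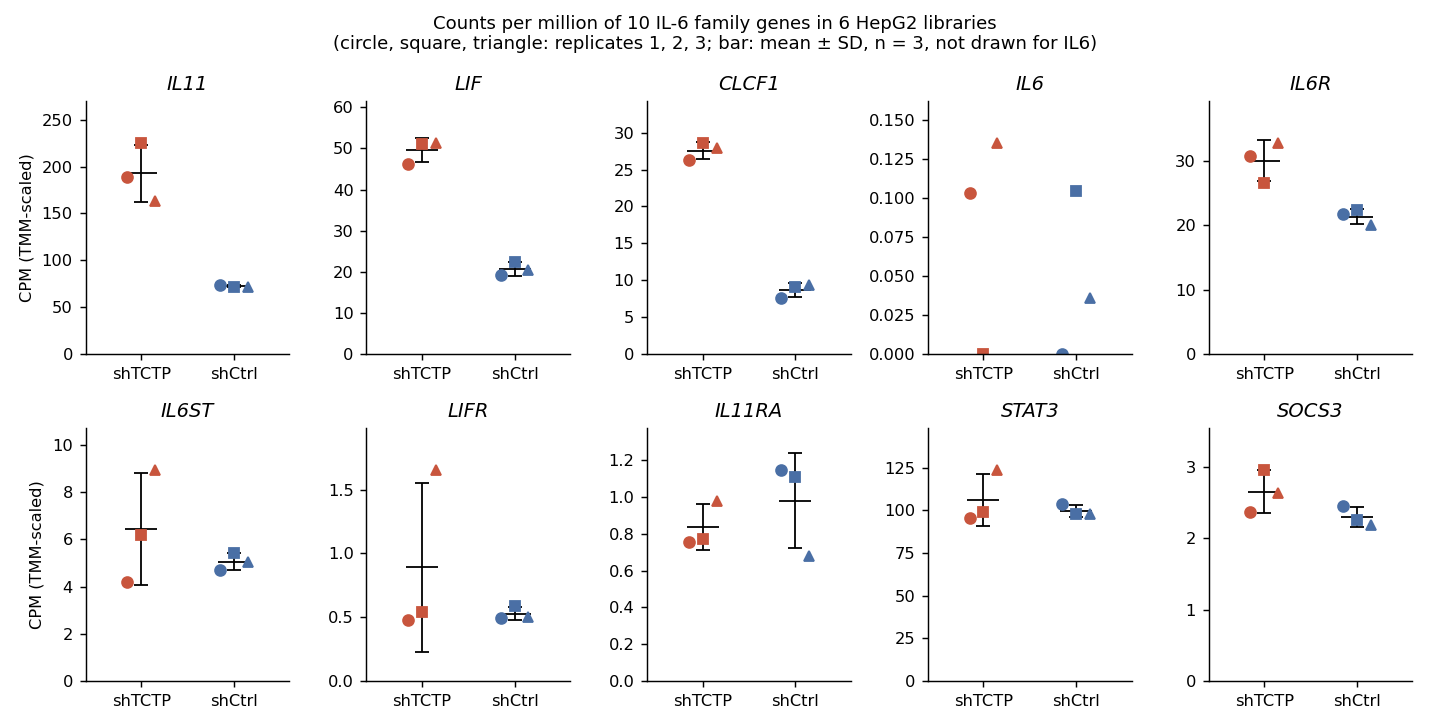
Each panel plots 1 gene, with CPM on the y axis starting at 0 and the shTCTP libraries left of the shCtrl libraries. Points are libraries and bars are mean ± SD (n = 3), not drawn for IL6. IL11, LIF, CLCF1 and IL6R are apart between the groups, and shTCTP library 3 (triangle) is the highest library for IL6ST, LIFR and STAT3.

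IL11 was the most abundant of the cytokine transcripts in all 6 libraries. Per length, IL11 made up 76.1%, 77.6% and 71.8% of the summed FPKM of the 4 cytokine genes in shTCTP libraries, against 78.1%, 74.6% and 75.2% in shCtrl libraries. The sum itself was 96.3, 117 and 107 FPKM in shTCTP and 38.6, 37.2 and 35.3 FPKM in shCtrl libraries. The ratio of LIF to CLCF1 did not overlap between the groups, at 0.876, 0.890 and 0.917 in shTCTP libraries and 1.27, 1.23 and 1.08 in shCtrl libraries. By FPKM, CLCF1 was thus the higher of the pair in every shTCTP library and LIF in every shCtrl library. By reads LIF was higher in all 6 libraries, with 1350 to 1520 reads against 766 to 850 for CLCF1 in shTCTP libraries. The order by FPKM therefore rests on the gene lengths used. IL11 relative to LIF overlapped between the groups, at 6.85, 7.37 and 5.34 in shTCTP and 6.39, 5.37 and 5.85 in shCtrl libraries. Ratios within a library are free of its scaling but keep the same choice of genes.

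**Figure D2:**
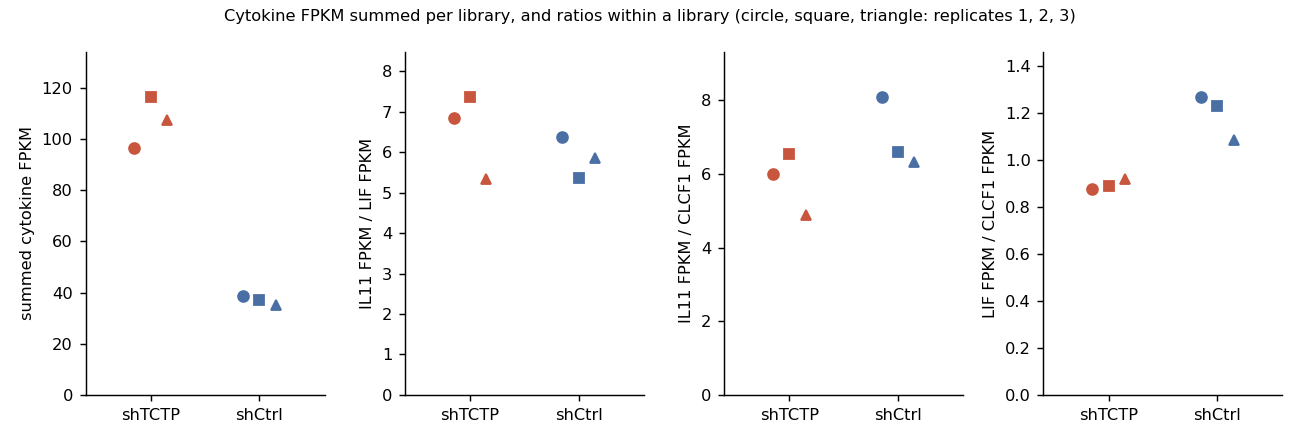
The left panel plots the FPKM summed over IL11, LIF, CLCF1 and IL6 in each library, and the other panels plot ratios of FPKM within a library, all on axes from 0. The shTCTP libraries (left in each panel) sit at 96.3 to 117 FPKM against 35.3 to 38.6 FPKM, and their LIF to CLCF1 ratios sit below 1.

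Fibroblasts and stellate cells are known sources of these cytokines, and their markers were examined beside them. Of 8 such markers 5 were matched, with a summed level of 28.5 to 37.8 FPKM in shTCTP and 25.9 to 27.6 FPKM in shCtrl libraries. Nearly all of it was ACTA2, at 26.6, 28.4 and 34.9 FPKM in shTCTP and 25.6, 23.7 and 24.8 FPKM in shCtrl libraries. COL1A1, a defining collagen, had 0.07, 0.12 and 0.21 FPKM in shTCTP and 0.09, 0.06 and 0.01 FPKM in shCtrl libraries, and LUM and PDGFRA had 2 and 1 reads over the 6 libraries. FPKM is not scaled by TMM factors, and the values of shTCTP library 3 run high. In the edgeR fit 0 of the 3 fibroblast and stellate cell markers tested were called, where 1.41% of all genes tested were. Their log2 fold changes were 0.04 to 1.20, with a median of 0.17. Without overlap between the groups, 1 of the 3 was higher and 0 lower, where the shares of all genes tested were 9.83% and 7.3%. The part of these markers in the cytokine values was not tested. Leukocyte markers summed to 427 to 551 FPKM in shTCTP and 482 to 596 FPKM in shCtrl libraries, almost wholly LYZ, with CD3E at 1 read over all 6. Of 4 leukocyte markers tested 0 were called, and without overlap 0 were higher and 2 lower. Nothing is read from these marker counts. Endothelial markers summed to 0.18 to 0.25 FPKM in shTCTP and 0.22 to 0.31 FPKM in shCtrl libraries.

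Of the 4 receptor genes 0 were called in either direction, where 1.41% of all genes tested were. IL6R, the IL-6 binding chain (chromosome 1, 154405193 to 154469450, plus strand), had 30.8, 26.6 and 32.8 CPM in shTCTP libraries, against 21.7, 22.3 and 20.1 CPM in shCtrl libraries. The groups did not overlap, which also held in the higher direction for 9.83% of all genes tested. Its fold was 1.41 (95% interval 1.15 to 1.72), and the difference did not pass over all genes. An antisense RNA that overlaps IL6R, IL6R-AS1, had 11, 13 and 25 reads in shTCTP and 5, 8 and 7 reads in shCtrl libraries (log2 fold change 1.25, edgeR adjusted p = 0.342).

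IL6ST, which encodes gp130 (chromosome 5, 55935095 to 55994993, minus strand), had 4.21, 6.19 and 8.95 CPM in shTCTP libraries, against 4.69, 5.41 and 5.06 CPM in shCtrl libraries. Its groups overlapped, and the highest value came from the library that stood apart. The log2 fold change was 0.35 (95% interval -0.15 to 0.85), and 0.05 without shTCTP library 3. LIFR, the LIF receptor chain (chromosome 5, 38474963 to 38608354, minus strand), had 14, 16 and 49 reads in shTCTP and 15, 17 and 14 reads in shCtrl libraries. Its log2 fold change was 0.75 (95% interval -0.24 to 1.74) and turned to -0.04 without shTCTP library 3. LIFR-AS1, an antisense RNA that overlaps LIFR, had 14, 20 and 27 reads in shTCTP and 32, 35 and 11 reads in shCtrl libraries. IL11RA, the IL-11 binding chain (chromosome 9, 34650702 to 34661892, plus strand), had 22, 23 and 29 reads in shTCTP and 35, 32 and 19 reads in shCtrl libraries. The groups overlapped, with a log2 fold change of -0.23 (95% interval -0.95 to 0.49). IL11RA overlaps GALT, a galactose metabolism gene on the same strand, by 334 bases, and GALT had 416 to 470 reads in shTCTP and 539 to 612 reads in shCtrl libraries. AL162231.3, which GENCODE 29 also annotates on that strand, overlaps IL11RA by 6412 bases and had 7, 8 and 2 reads in shTCTP and 4, 10 and 6 reads in shCtrl libraries.

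STAT3 (chromosome 17, 42313324 to 42388568, minus strand) had 95.8, 98.8 and 124 CPM in shTCTP libraries, against 104, 97.8 and 97.8 CPM in shCtrl libraries. All but shTCTP library 3 lay within a narrow band. The fold was 1.06 (95% interval 0.874 to 1.29), and the log2 fold change of 0.09 turned to -0.03 without that library. SOCS3, the feedback inhibitor that STAT3 induces (chromosome 17, 78356778 to 78360077, minus strand), had 2.36, 2.96 and 2.63 CPM in shTCTP libraries, against 2.46, 2.25 and 2.19 CPM in shCtrl libraries. Its groups overlapped, and the fold was 1.15 (95% interval 0.825 to 1.61). It rested on 61 to 88 reads per library.

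**Figure D3:**
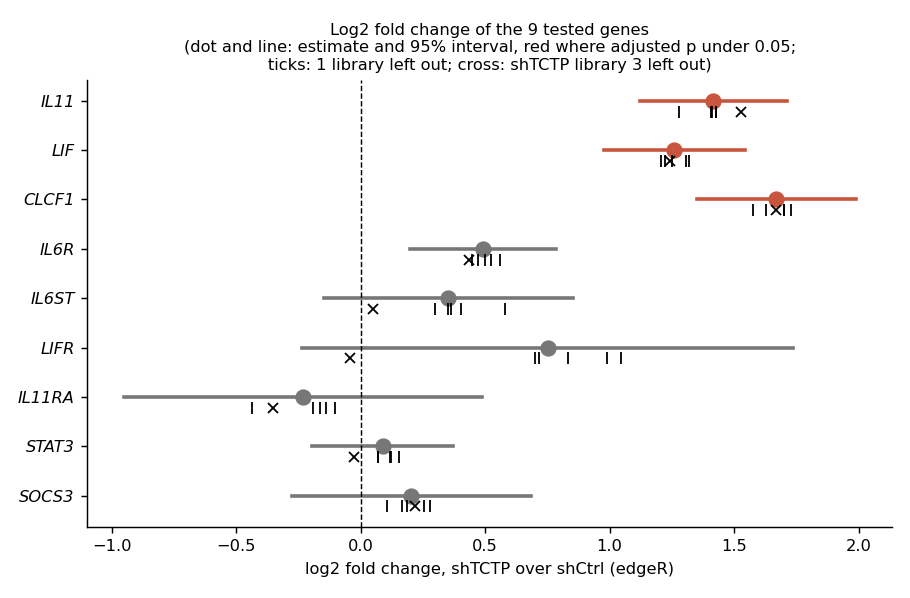
The x axis is the log2 fold change, shTCTP over shCtrl, and each row is a gene with its estimate and 95% interval, ticks for fits with 1 library left out and a cross for the fit without shTCTP library 3. IL11, LIF and CLCF1 (red) stay between 1.21 and 1.73 in these fits, while the crosses for LIFR and STAT3 fall just below 0.

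FPKM sets genes on a common scale per length but is not scaled by TMM factors, of which shTCTP library 3 had the highest (1.17, against 0.919 to 1.02 for the others), so that its FPKM values run high. The shTCTP means ran in the order IL11 (80.3 FPKM), STAT3 (21.2), CLCF1 (13.9), LIF (12.5), IL6R (5), SOCS3 (0.967), IL6ST (0.727), IL11RA (0.253), LIFR (0.0900), with IL6 last at 0.06, 0 and 0.09 FPKM. The ranges of the neighbours CLCF1 and LIF, SOCS3 and IL6ST, and LIFR and IL6 overlapped in that group. The shCtrl means ran in the order IL11 (28.1 FPKM), STAT3 (18.3), LIF (4.81), CLCF1 (4.04), IL6R (3.28), SOCS3 (0.783), IL6ST (0.513), IL11RA (0.270), LIFR (0.0467), with IL6 last at 0, 0.06 and 0.02 FPKM, and only the ranges of LIFR and IL6 overlapped. IL11 lay above 96.7% of the genes listed in the FPKM table by its shTCTP mean and above 92.7% by its shCtrl mean. IL11RA and LIFR, the chains that bind IL-11 and LIF, were the lowest of the receptor genes in both groups.

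**Figure D4:**
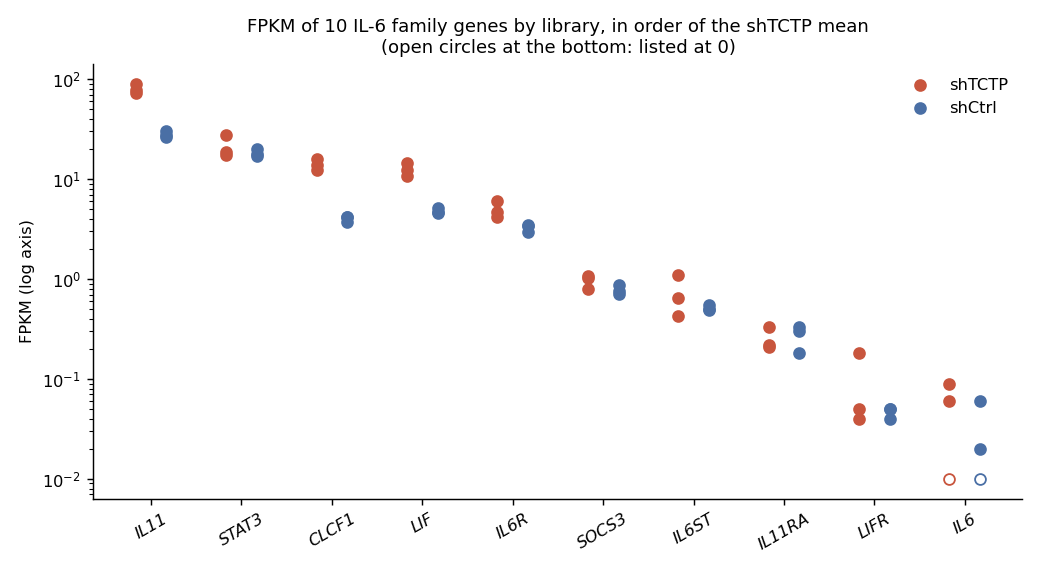
The y axis is FPKM on a log scale and each point is a library, shTCTP left of shCtrl for each gene, with open circles for libraries listed at 0. IL11 tops both groups, and IL11RA, LIFR and IL6 lie below 0.4 FPKM in all 6 libraries.

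The remaining ligands and receptors of the family gave no call. Of 11 such genes 10 were matched and 5 tested, and 0 were called, where 1.41% of all genes tested were. CNTFR, the CNTF receptor gene, was not analysed here. OSMR, the oncostatin M receptor, had 17.2, 17.7 and 25.7 CPM in shTCTP and 25.3, 18.8 and 17.7 CPM in shCtrl libraries. IL27RA had 9.62 to 11.7 CPM in shTCTP and 8.98 to 11.2 CPM in shCtrl libraries. CTF1, the cardiotrophin gene, had a log2 fold change of 0.36 ± 0.31 (SE) with an edgeR adjusted p of 0.735, and -0.11 without shTCTP library 3, and EBI3, a subunit of IL-27, one of -0.89 ± 0.55 (SE) with an edgeR adjusted p of 0.592, on 5 to 25 reads per library. OSM, CNTF, IL27, IL31 and IL31RA had at most 6 reads in any library and were not tested.

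Among the kinases, STATs, adaptors and shedding proteases around gp130, 0 of 13 tested genes were called, where 1.41% of all genes tested were. The median log2 fold change was -0.00 against -0.00 over all genes tested. The 3 with the smallest p were SOS1, an exchange factor for RAS (0.41 on the log2 scale, edgeR adjusted p = 0.505), STAT5A (-0.38, edgeR adjusted p = 0.560) and PTPN11, the phosphatase SHP2 (0.22, edgeR adjusted p = 0.672). JAK2 was not tested for want of reads. Without overlap between the groups, 0 of the 13 were higher and 2 lower, where the shares of all genes tested were 9.83% and 7.3%. Nothing is read from such counts.

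Of 14 tested inhibitors of JAK and STAT signalling 1 rose and 0 fell, where 1.26% of all genes tested were called higher and 0.148% lower. It was SOCS2, known as a brake on growth hormone signalling through STAT5. SOCS2 had 5.86, 5.11 and 4.63 CPM in shTCTP libraries, against 2.46, 1.84 and 1.87 CPM in shCtrl libraries. The groups did not overlap, and the means were 5.20 ± 0.620 CPM in shTCTP and 2.05 ± 0.351 CPM in shCtrl libraries (SD, n = 3 each). The difference was 1.34 ± 0.22 on the log2 scale (SE, adjusted p = 0.0034 by edgeR), and the call held with any 1 library left out (highest edgeR adjusted p = 0.0436). With limma on log2(FPKM + 1), a scale that understates changes of low genes, it was 0.48 (adjusted p = 0.019). SOCS1, which shares a kinase inhibitory region with SOCS3, stood at 11.6 CPM in both groups (log2 fold change -0.00, 95% interval -0.35 to 0.34). Over the list, the median log2 fold change was 0.06. Without overlap between the groups, 3 of the 14 were higher and 1 lower, where the shares of all genes tested were 9.83% and 7.30%. These genes were listed with earlier results of the data known, so nothing is read from such counts.

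Of 19 tested STAT3 target genes 2 rose and 0 fell, against 1.26% called higher and 0.148% lower among all genes tested. The count that rose was 4 without shTCTP library 3 and 3 without shTCTP library 1. In the higher direction 8 of the 19 lay without overlap, where the share of all genes tested was 9.83%. The median log2 fold change was 0.14. The list was drawn up with earlier results of these data known, so nothing is read from its counts beside these shares. Those that rose were FOS and JUNB, both AP-1 genes that many other signals also induce. FOS averaged 8.03 ± 0.696 CPM in shTCTP and 2.26 ± 0.423 CPM in shCtrl libraries (SD, n = 3 each), 1.83 higher on the log2 scale with an adjusted p of 9.94e-05 in the edgeR fit, and 1.12 higher with limma on log2(FPKM + 1). JUNB averaged 75.3 ± 3.80 CPM in shTCTP and 35.1 ± 3.24 CPM in shCtrl libraries (SD, n = 3 each), 1.10 higher on the log2 scale with an adjusted p of 0.000136 in the edgeR fit.

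The acute phase proteins, which IL-6 induces in hepatocytes, held the only lower calls among these pathway lists. Of 18 tested genes 0 rose and 2 fell, where 1.26% of all genes tested were called higher and 0.148% lower. A positive log2 fold change was found for 3 of them, and the median was -0.25. In the lower direction 9 of the 18 did not overlap between the groups, where the share of all genes tested was 7.30%. Since this list too was chosen with earlier results known, nothing is read from that difference. HAMP, the iron hormone hepcidin, had 81.4, 59.2 and 49.8 CPM in shTCTP libraries, against 89.2, 102 and 130 CPM in shCtrl libraries (log2 difference -0.76 ± 0.18 SE, adjusted p = 0.0440 by edgeR). CP, the copper-carrying ferroxidase ceruloplasmin, had 19.6, 12.7 and 17.7 CPM in shTCTP libraries, against 30.5, 35.3 and 21.8 CPM in shCtrl libraries (log2 difference -0.81 ± 0.19 SE, adjusted p = 0.0440 by edgeR). Both missed the threshold without shTCTP library 2, shCtrl library 1 or shCtrl library 2, and HAMP also without shCtrl library 3, where adjusted p by edgeR reached 0.311 for CP and 0.244 for HAMP. Both also missed it with the replicate number as a block, at -0.77 for HAMP and -0.80 for CP, and with limma on log2(FPKM + 1), at -0.66 for HAMP and -0.57 for CP. Hepatocyte markers, 2 of which are also acute phase genes, had a median of -0.28 with 0 of 11 called, where 1.41% of all genes tested were. In the lower direction 4 of these 11 did not overlap between the groups, where the share of all genes tested was 7.30%. Nothing is read from these counts either. The part of hepatocyte markers in the acute phase values was not tested.

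**Figure D5:**
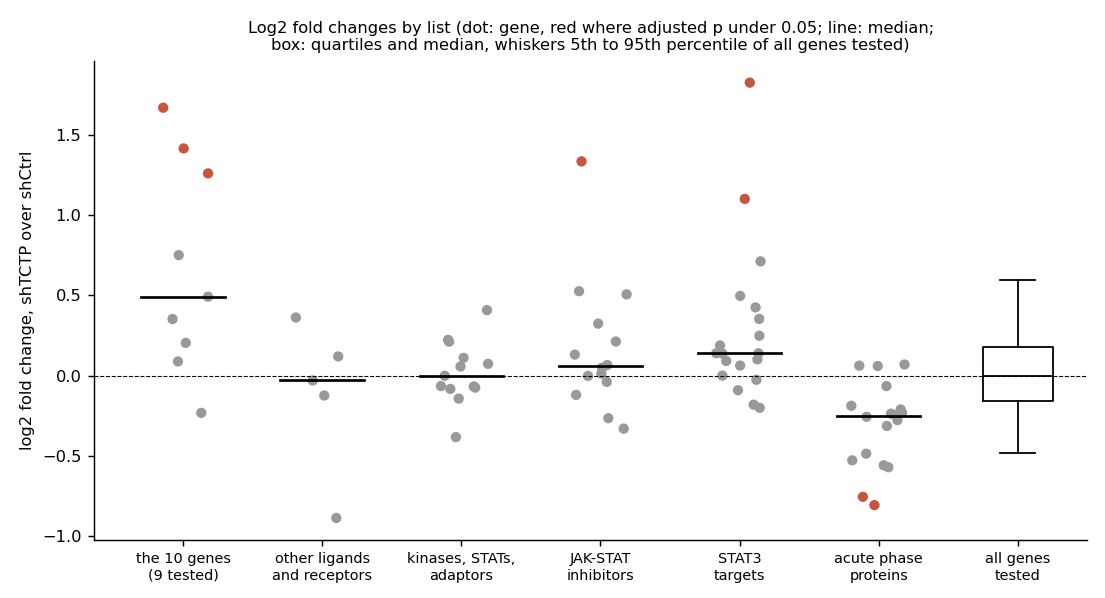
The y axis is the log2 fold change, shTCTP over shCtrl, and each dot is a tested gene, red where called, with a line at the list's median and a box for all 14197 genes tested. The dots above 1 are IL11, LIF, CLCF1, SOCS2, FOS and JUNB, and the acute phase list has its median at -0.25.

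The genes most like CLCF1 across the libraries were sought among 8809 tested genes with a mean of at least 5 CPM, by Pearson's r of log2 CPM over the 6 libraries. The 5 highest were DUSP1 (r = 0.998), a MAP kinase phosphatase, JUNB (r = 0.998), LIF (r = 0.996), CNN1 (r = 0.994), an actin-binding protein, and RND1 (r = 0.994), a small GTPase. IL11 ranked 44 (r = 0.976) and IL6R 282 (r = 0.902), while IL6ST (r = 0.45) and STAT3 (r = 0.30) were far less alike. All 6 points fall into the same 2 groups, so any gene that differs between the groups gives a high r, and the values are a description of these libraries.

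A sequence feature that the choice of genes did not use was examined last, but the feature itself was picked after the values were seen. The pentamer ATTTA, the core of AU-rich elements that mark short-lived messages, was counted in the longest annotated 3′ untranslated region of each gene. IL6 had 6 copies in 429 bases (14 per kilobase), IL11 had 9 in 1618 bases (5.56 per kilobase), CLCF1 had 4 in 968 bases (4.13 per kilobase) and LIF had 7 in 3204 bases (2.18 per kilobase). The median over 11582 tested genes with a region of at least 200 bases was 1.47 per kilobase. IL11 lay above 96.0% of those genes, CLCF1 above 90.0% and LIF above 64.4%. Among the genes not called, LIFR had 4.37 and IL6ST 3.4 per kilobase, STAT3 had 1.65, IL6R 1.47, SOCS3 2.44 and IL11RA 0. By the same ranking LIFR lay above 91.5%, IL6ST above 83.0%, SOCS3 above 69.1%, STAT3 above 54.0%, IL6R above 50.1% and IL11RA above 0%. IL6, which was not tested, lay above 99.9%. A pentamer count is a description of the annotation, and message stability was not measured.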

How the data were processed

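Gene-level read counts and FPKM, both as deposited by the authors, were used for 3 shTCTP and 3 shCtrl libraries. The submitters' processing notes name GRCh38, TopHat2, bcl2fastq and edgeR. How reads were assigned to genes, with which annotation and strand setting, is not given in the sources used here. Poly(A) RNA was made into directional libraries, per the labels' protocols. Counts were tested with the edgeR 4.0.16 quasi-likelihood test in R 4.3.3 (filterByExpr, TMM, robust dispersion, group as the only term) on all 14197 genes that passed the filter, with Benjamini-Hochberg adjustment and a threshold of 0.05, and the procedure was tested on simulated data. Standard errors come from the estimate and the F statistic. Coordinates and 3′ regions are from GENCODE 29, and promoter windows from RefSeq. SERPINA3 stands in 2 rows of the count table and was taken by gene ID. The genes and lists were chosen with earlier results of these data known, and pentamers after seeing the values. Named genes were all 10 family members, up to 5 called genes per list or the 3 with the smallest p, other ligands and receptors with reads (1 is not reported here), and the 5 genes most like the family member with the smallest p. No library of a group repeated another: chi-square divided by its degrees of freedom was 15.1 to 94.1. Alternatives were RLE and upper quartile scaling, other filters, limma 3.58.1 on log2 FPKM, DESeq2 1.42.0, a block for replicate number and each library left out. Figures were drawn with matplotlib 3.10.9.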

Additional observations from a re-analysis of the deposited data

How the results depend on the processing

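The 3 calls among the 10 genes (IL11, LIF and CLCF1, all higher) held under all 14 alternatives, with log2 fold changes of 1.28 to 1.53 for IL11, 1.21 to 1.35 for LIF and 1.56 to 1.76 for CLCF1, and the other genes of the family were called under none of them. IL11, LIF and CLCF1 were chosen with their calls in these same libraries known, so this agreement does not support the calls. Only STAT3 and LIFR of the 9 tested changed sign, both without shTCTP library 3, as did CTF1. With 1 library left out, log2 fold changes were -0.043 to 1.05 for LIFR, -0.028 to 0.16 for STAT3 and -0.11 to 0.57 for CTF1. The count of 200 genes called was 317 with no filter (246 higher, 71 lower), 314 with DESeq2, 130 with the replicate number as a block, and 79 to 343 with 1 library left out. The count of 5 in the wider pathway lists was 3 with the block, 3 with limma on log2(FPKM + 1) and 3 to 7 with 1 library left out, the fits with 1 library left out having fewer samples. HAMP and CP were the calls lost under the block (edgeR adjusted p 0.066 and 0.062) and in limma on log2(FPKM + 1). CP was also lost in limma on log2(FPKM + 0.1) (adjusted p = 0.266), and HAMP with the filter at 1 CPM (edgeR adjusted p = 0.0501). The count of STAT3 targets called was 2 to 4 and that of acute phase genes 0 to 3. Deviations of same-numbered libraries from their group means correlated at -0.23, 0.00 and -0.20, and those of other pairs at -0.18 to 0.29. Deviations from a mean of 3 libraries depend on each other, so these values cannot show whether the labels' numbers pair the samples. TPT1 stayed negative, at -0.50 to -0.29, and passed under none. The cause of the other shifts was not tested. LIFR, EBI3 and IL6R-AS1 gave no value with a filter of at least 1 CPM in 3 libraries. Depth limits IL6, IL11RA and LIFR most, at 0 to 49 reads per library.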
